A study of Mus musculus with 9 samples.

Results

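The 40 genes described here are those by which fat cells are usually recognised and by which cells make, store and release triglyceride. They were chosen by gene symbol. The platform's probe table matched 37 of the 40, through 41 of the 26423 probes on the array, which name 17742 genes in all. Acacb, Acly and Adrb3 were not matched to a probe, and their expression is not analysed here. They fall into 7 groups by role: secreted fat cell proteins, coat and fatty acid binding proteins of the lipid droplet, brown fat genes, lipid uptake and lipolysis, transcriptional regulators, fatty acid synthesis, and glycerolipid synthesis.

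RNA of the colon was taken from BALB/c mice, all female, and read as Cy5 intensity on microarrays, with 3 arrays in each of 3 groups. Mock mice were untreated. Sham mice received 12.5 mg/kg of the carcinogen azoxymethane (AOM) by intraperitoneal injection on day 1, and from day 8 had 5 days of drinking water with 2.5% dextran sodium sulfate (DSS), a chemical that damages the colonic epithelium, and then 16 days of plain water, with 3 additional DSS cycles. Vanillin mice had the AOM and DSS course and, in addition, 100 mg/kg of oral vanillin for 91 days. Animals given other amounts of vanillin, which the series design names, were not analysed here. Whether each array stands for its own mouse is not stated in the labels, and the p-values therefore reflect array-to-array spread alone, part or all of which may be technical.

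White fat cells hold a single large triglyceride droplet coated by perilipins and secrete hormones such as leptin and adiponectin. Brown fat cells hold many small droplets and burn fatty acids for heat through the mitochondrial carrier Ucp1. The nuclear receptor Pparg and the C/EBP factors switch on the genes of both, while Srebf1 and Mlxipl drive the making of fatty acids from sugar. In the gut wall, fat cells lie mostly outside the muscle layer, and the absorptive epithelium handles lipid with some of the same enzymes. Sebaceous gland cells of skin also make large amounts of lipid and are known to express Scd1, Cidea and Elovl3.

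All arrays had closely similar distributions, with median intensities of 319.6 to 320.1 and a highest value near 65509, the top of the range. Arrays within a group correlated at 0.995 to 0.998 over all probes. Mock and Sham arrays correlated at 0.926 to 0.929, and Vanillin arrays at 0.969 to 0.973 with Mock and 0.964 to 0.967 with Sham. Of 10 colonocyte markers, none had a group mean under an intensity of 50, below which probes are called dim here, and their summed intensity was 237777 to 252023 in Mock, 210606 to 216147 in Sham and 183088 to 196905 in Vanillin. The arrays also held strong signal of tissues that the label colon does not name. Of 12 markers of squamous keratinocytes, the cells of skin and anal lining, the summed intensity was 533949 to 538356 in Mock, 26753 to 27908 in Sham and 290601 to 343486 in Vanillin. That of 9 skeletal muscle markers was 174473 to 183696, 3571 to 3760 and 65226 to 69830. These sums move in the same order over the groups as most of the fat cell genes, and their part in the results was not tested.

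RefSeq promoters (build GRCm38.p6) matched 27 of the 40 listed genes through 36 start sites, Acacb and Acly included, and Fabp4, Cidea, Lpl and Scd1 are among those not matched. Short motifs were searched on both strands, from 250 bases before to 50 after the start. Promoters of 4 genes that were low in Sham are shown by their 250 bases upstream. Those of leptin (Lep, chr6:29059971-29060220, plus strand) and the droplet proteins Plin1 (chr7:79732777-79733026, minus strand) and Cidec (chr6:113434765-113435014, minus strand, 1 of 2 starts) were picked because they hold TTGCNNAA, a motif of C/EBP factors, marked in capitals. That of Cfd (chr10:79890603-79890852, plus strand), the gene with the largest drop, holds none of the motifs searched, and neither does the other Cidec start.
Lep: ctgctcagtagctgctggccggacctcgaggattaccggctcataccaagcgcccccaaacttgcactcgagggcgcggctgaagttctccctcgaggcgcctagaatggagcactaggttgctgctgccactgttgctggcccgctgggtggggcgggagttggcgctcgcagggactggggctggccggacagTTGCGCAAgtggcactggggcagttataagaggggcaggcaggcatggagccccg
Plin1: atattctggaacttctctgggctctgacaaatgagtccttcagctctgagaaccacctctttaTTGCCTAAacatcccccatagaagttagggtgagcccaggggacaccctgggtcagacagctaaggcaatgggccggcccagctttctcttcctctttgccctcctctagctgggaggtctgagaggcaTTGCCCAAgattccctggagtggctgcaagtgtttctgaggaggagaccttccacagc
Cidec: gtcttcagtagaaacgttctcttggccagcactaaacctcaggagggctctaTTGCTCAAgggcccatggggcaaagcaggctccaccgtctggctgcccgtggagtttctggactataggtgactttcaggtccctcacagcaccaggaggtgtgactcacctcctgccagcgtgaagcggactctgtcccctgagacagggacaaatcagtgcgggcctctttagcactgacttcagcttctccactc
Cfd: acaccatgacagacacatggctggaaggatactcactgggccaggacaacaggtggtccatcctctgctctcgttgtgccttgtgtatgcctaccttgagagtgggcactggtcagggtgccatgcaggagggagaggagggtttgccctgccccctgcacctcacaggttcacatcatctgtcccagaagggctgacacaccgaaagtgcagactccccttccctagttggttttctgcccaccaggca

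The motif began 55 bases before the start in Lep, 187 and 58 bases before it in Plin1, and 198 bases before it in Cidec. It was present in 5 of the 36 member promoters, those of Cidec, Gpam, Lep, Plin1 and Pparg, and in 10.8% of all 32851 promoters of the same length. The nuclear receptor hexamer AGGTCA was present in 11 of the 36 and in 16.3% of all promoters. The direct repeat of that hexamer with 1 base between, the usual Pparg element, was in 0 of the 36 and in 13 promoters in all. These matches are descriptions of letters, on both strands, and not of bound sites.

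A second pair shows the promoters of Adipoq (chr16:23146286-23146535, plus strand), a gene that was low in Sham, and Fasn (chr11:120824548-120824797, minus strand), which did not pass the test in any comparison. Capitals mark the CCAAT box on either strand.
Adipoq: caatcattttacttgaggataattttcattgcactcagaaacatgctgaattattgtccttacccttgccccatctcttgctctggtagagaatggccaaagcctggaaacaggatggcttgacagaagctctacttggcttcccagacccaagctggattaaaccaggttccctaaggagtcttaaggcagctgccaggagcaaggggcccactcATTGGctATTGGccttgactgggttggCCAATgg
Fasn: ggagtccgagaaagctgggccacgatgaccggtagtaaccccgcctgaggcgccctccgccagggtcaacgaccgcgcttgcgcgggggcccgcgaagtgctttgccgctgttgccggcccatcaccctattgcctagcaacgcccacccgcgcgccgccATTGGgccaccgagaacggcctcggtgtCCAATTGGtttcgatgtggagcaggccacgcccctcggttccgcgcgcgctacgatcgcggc

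Adipoq had CCAAT boxes starting 34, 27 and 7 bases before the start, and Fasn had them 90, 62 and 59 bases before it, the last 2 overlapping. The box was present in 14 of the 36 member promoters and in 37.4% of all promoters. The sterol element TCACNCCAC was in 1 of the 36, that of Mlxipl, and in 1.24% of all. The E-box CACGTG was in 3 and in 7.15%.

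Sham minus Mock asks how colons after the AOM and DSS course differed from untreated ones, and Vanillin minus Sham how they differed when vanillin was given as well. The 2 comparisons share the Sham arrays, and Vanillin minus Mock shares arrays with both. Values are differences on the log2(intensity + 16) scale with their standard error (SE), each gene being represented by its brightest probe, and called at an adjusted p under 0.05 over all 26423 probes (limma, Benjamini-Hochberg). This scale understates the change of dim probes.

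Most of the genes were low in Sham and stood between Sham and Mock, or near Mock, in Vanillin. In Sham minus Mock, 24 of the 37 genes fell and 6 rose, against 23.2% of all probes called lower and 36.5% called higher. The median difference was -1.20 over the members and 0.10 over all probes. In Vanillin minus Sham, 24 rose and 6 fell, against 15.7% of all probes called higher and 32.2% called lower, with medians of 0.73 and -0.09. In Vanillin minus Mock, 19 fell and 6 rose, against 26.2% of all probes called lower and 24.5% called higher, with a median of -0.22 over the members and -0.00 over all probes. The 6 called higher in Sham minus Mock include Cd36 and Aqp7, whose other probes fell, and Pparg, whose probe is dim. Without these 3 genes, 24 fell and 3 rose of 34 in Sham minus Mock, 24 rose and 4 fell in Vanillin minus Sham, and 19 fell and 4 rose in Vanillin minus Mock. With the next brightest probe of Cd36 and Aqp7, 26 fell and 4 rose of the 37 in Sham minus Mock. In tissue RNA, fewer cells of a type and less RNA per cell cannot be told apart.

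Of the 24 genes that fell in Sham, 22 were higher in Vanillin than in Sham, the exceptions being Lipe and Pnpla2. Against Mock, 15 of the 24 were still lower in Vanillin, 7 did not pass the test and 2, Cebpb and Elovl6, were higher. The mean intensity of 19 of the 24 was under 50% of that in Mock. Over the 37 genes the median level was 41.8% of Mock in Sham and 85.8% in Vanillin.

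**Figure D1:**
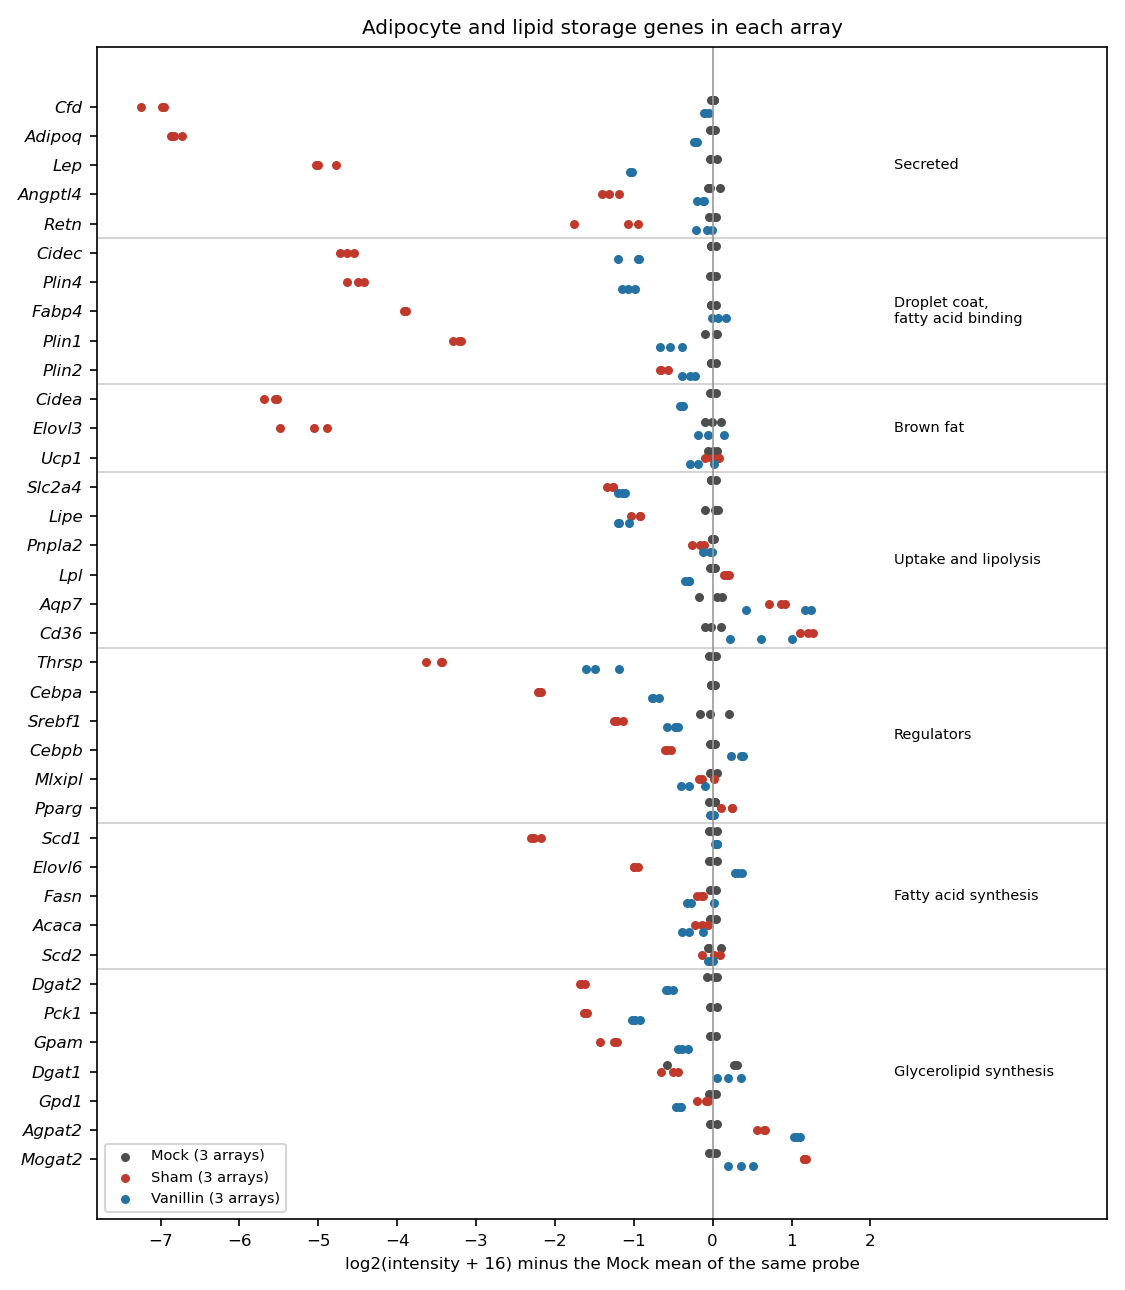
Each point is 1 array, placed by the difference of log2(intensity + 16) from the Mock mean of the same probe, for the brightest probe of each of the 37 genes, grouped by role. Sham points lie from about 7 below Mock (Cfd, -7.06) to about 1 above it (Cd36, 1.19), and most Vanillin points lie between Sham and Mock or near Mock.

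All 5 secreted fat cell proteins fell in Sham minus Mock, with a median of -4.94, and all 5 rose in Vanillin minus Sham, with a median of 3.90. Adipoq encodes adiponectin, the insulin-sensitising hormone of fat cells. Its intensity was 15812, 15145 and 15508 in Mock, 130, 120 and 117 in Sham, and 13099, 13495 and 13366 in Vanillin. The Sham arrays stood at 0.79% of the Mock mean with no overlap between groups. The difference was -6.81 (SE 0.05, adjusted p = 1.2e-12) in Sham minus Mock and 6.59 (adjusted p = 2.4e-12) in Vanillin minus Sham, and Vanillin stayed below Mock by a difference of -0.22 (adjusted p = 0.006).

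Cfd, which encodes adipsin, a complement protease made in bulk by fat cells, gave 35988, 35103 and 35988 in Mock, 272, 220 and 266 in Sham, and 33042, 34442 and 33253 in Vanillin. Its difference of -7.06 (SE 0.075, adjusted p = 5.5e-12) in Sham minus Mock was the lowest of the 37 genes, and that of 6.97 (adjusted p = 1.3e-11) in Vanillin minus Sham the highest. Vanillin and Mock differed by -0.09, which did not pass the test (adjusted p = 0.36). Leptin (Lep), the satiety hormone that tracks the size of fat stores, gave 1906, 2011 and 1886 in Mock, 43.4, 55.3 and 44.6 in Sham, and 939, 945 and 924 in Vanillin. It fell by 4.94 (SE 0.072, adjusted p = 3.6e-11) in Sham minus Mock to a dim level, and its Vanillin mean was 48.4% of Mock (difference -1.03, adjusted p = 3.1e-06). The Sham difference of Lep depends on the number added before the log, -5.32 with 1 added and -4.16 with 64.

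Angptl4, a secreted inhibitor of lipoprotein lipase, fell by 1.30 in Sham minus Mock (SE 0.07, adjusted p = 2.8e-07) and rose by 1.16 in Vanillin minus Sham (adjusted p = 1.9e-06), reaching 90.6% of Mock. Retn, which encodes resistin, gave 221, 235 and 229 in Mock, 100, 111 and 56.4 in Sham, and 227, 216 and 196 in Vanillin. Sham replicate 3 was the lowest array by far, the Sham arrays all lay below the others, and the difference of Sham minus Mock was -1.26 (SE 0.18, adjusted p = 0.00025). In Vanillin minus Mock, Angptl4 and Retn differed by -0.14 and -0.10 and did not pass the test (adjusted p = 0.13 and 0.69).

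All 5 droplet coat and fatty acid binding genes fell in Sham, with a median of -3.90, and rose in Vanillin minus Sham, with a median of 3.45. In Vanillin minus Mock, 4 of the 5 were still called lower, with a median of -0.53, where 2 of the 5 secreted genes were, with a median of -0.14. Fabp4, the fatty acid carrier of fat cells and also of macrophages and endothelium, was the one not called. Its intensity was 31979, 30441 and 30608 in Mock, 2059, 2077 and 2035 in Sham, and 30889, 32564 and 34927 in Vanillin, so that Vanillin arrays stood at or above Mock. Its differences were -3.90 (SE 0.055, adjusted p = 2.9e-11) in Sham minus Mock and 0.08 (adjusted p = 0.26) in Vanillin minus Mock.

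Plin1, the perilipin that guards the droplet against lipases, gave 3406, 3729 and 3762 in Mock, 355, 385 and 377 in Sham, and 2773, 2483 and 2272 in Vanillin. The 3 groups did not overlap, with Vanillin between Sham and Mock. It fell by 3.23 in Sham minus Mock (SE 0.078, adjusted p = 1.1e-09), rose by 2.70 in Vanillin minus Sham (adjusted p = 9.5e-09) and stood below Mock in Vanillin by -0.53 (adjusted p = 0.00041). Plin4, a perilipin of nascent droplets, gave 13917, 14678 and 14296 in Mock, 560, 653 and 620 in Sham, and 7236, 6805 and 6430 in Vanillin. Cidec, which fuses droplets into a large one, gave 3882, 4061 and 3894 in Mock, 154, 143 and 134 in Sham, and 2065, 2042 and 1707 in Vanillin. Plin4 and Cidec had the largest remaining gaps of this group in Vanillin minus Mock, -1.07 (adjusted p = 1.9e-06) and -1.02 (adjusted p = 7.3e-06), at 47.7% and 49.1% of Mock. Plin2, the perilipin found in nearly all cells with droplets, moved least: it stood at 64.5% of Mock in Sham (difference -0.63, SE 0.058, adjusted p = 1.2e-05) and at 81.3% in Vanillin (-0.30, adjusted p = 0.0021).

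**Figure D2:**
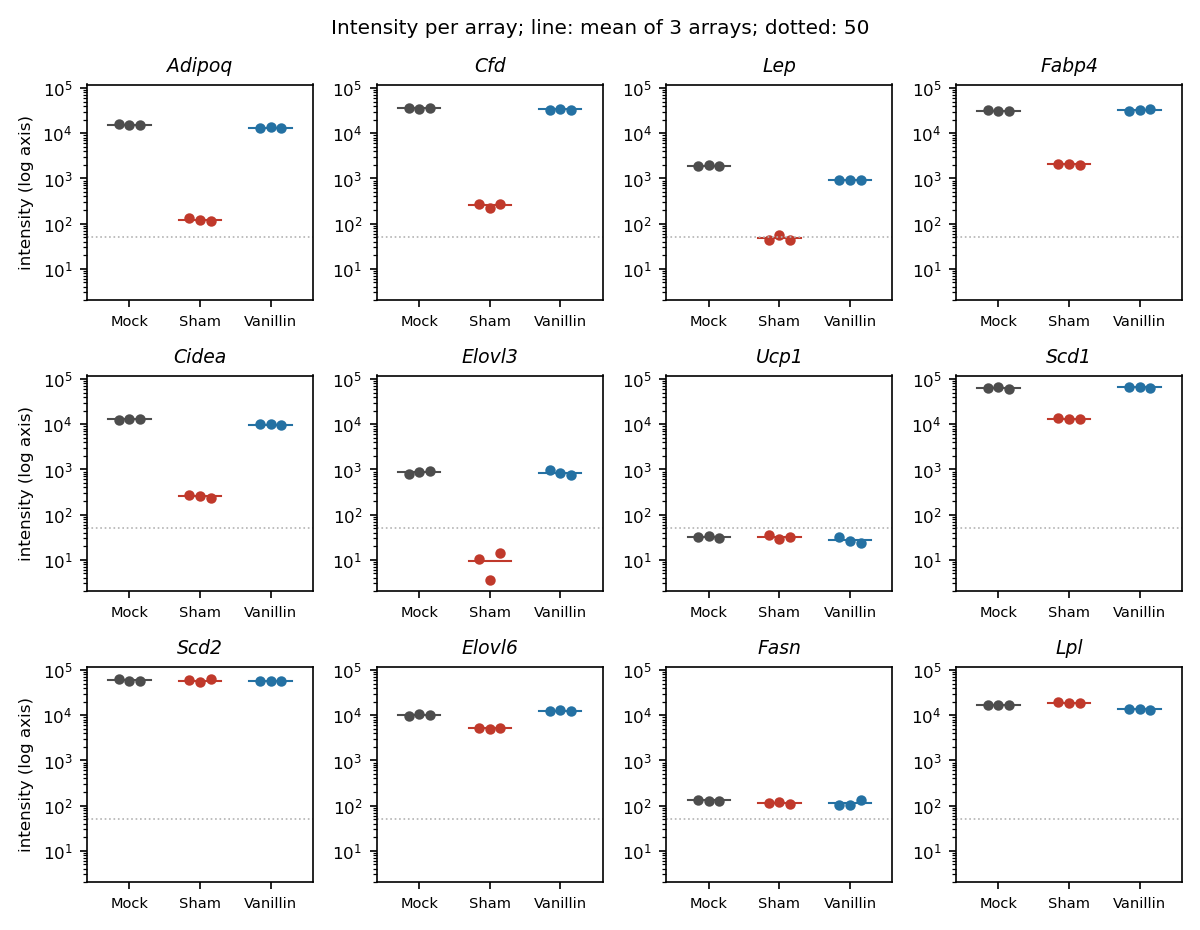
Intensity on a log axis in each of the 9 arrays for 12 genes, with a line at each group's mean and a dotted line at 50. Adipoq, Cfd, Lep, Fabp4, Cidea and Elovl3 drop in Sham and return toward Mock in Vanillin, while Ucp1 lies under the dotted line in every array and Scd2 and Fasn show no called difference.

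The 3 brown fat genes did not move together. Ucp1, the heat-making mitochondrial carrier that defines brown fat, was dim in every group, at 31.9, 33.8 and 30.1 in Mock, 34.6, 28.9 and 31.7 in Sham, and 32.7, 26.2 and 23.3 in Vanillin. The groups overlapped, and the differences of -0.01, -0.14 and -0.15 did not pass the test (adjusted p = 0.94, 0.2 and 0.17). Without Vanillin replicate 1 the Vanillin differences passed it, at -0.23 against Sham (adjusted p = 0.0275) and -0.23 against Mock (adjusted p = 0.0224), still among dim values. Adjusted p ranged over the settings tried from 0.0275 to 0.517 and from 0.0224 to 0.463.

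Cidea, a droplet protein abundant in brown fat and in sebaceous gland, gave 12672, 13254 and 12849 in Mock, 266, 261 and 235 in Sham, and 9887, 9987 and 9689 in Vanillin. Elovl3, an elongase of very long fatty acids that both tissues also share, gave 808, 864 and 932 in Mock, 10.7, 3.67 and 13.9 in Sham, and 960, 828 and 758 in Vanillin. The Sham arrays of both lay far below all others. Cidea fell by 5.59 (SE 0.055, adjusted p = 3.8e-12) and Elovl3 by 5.14 (SE 0.15, adjusted p = 3.9e-09) in Sham minus Mock, the latter by 6.54 with 1 added before the log and 3.67 with 64, since its Sham level is dim. In Vanillin minus Mock, Cidea was at -0.39 (adjusted p = 0.00033) and Elovl3 at -0.04 (adjusted p = 0.86).

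A wider set of other genes allows white and brown fat to be set side by side. The lists of other genes, here and below, were chosen with earlier results of these data known. Their counts are therefore descriptions and not independent support. Of 7 other genes enriched in white fat, 6 fell and 1, Tcf21, rose in Sham minus Mock (median -2.12), and in Vanillin minus Sham 5 rose and the remaining 2 did not pass the test (median 1.44). Among them Nnat fell by 3.94 and rose by 3.96, Wfdc21 fell by 2.95 and rose by 2.93, and Hoxc9, a positional gene of white fat, fell by 2.12 and rose by 2.46. Of 15 other genes of brown and beige fat, 7 fell and 5 rose in Sham minus Mock (median -0.49). That is 46.7% called lower and 33.3% higher, against 23.2% and 36.5% of all probes. In Vanillin minus Sham 6 rose and 6 fell (median -0.04). That is 40% called each way, against 15.7% of all probes called higher and 32.2% lower. Cox8b, a cytochrome oxidase subunit of brown fat and of muscle, fell by 5.29 and rose by 3.60. Otop1 rose from a mean of 27.4 in Mock to 1962 in Sham, a difference of 5.52, and stood at 700 in Vanillin. Dio2, which activates thyroid hormone, rose by 2.43 in Sham minus Mock and differed by -0.04 in Vanillin minus Sham, and Prdm16, a regulator of brown fat identity, differed by -0.30 in Sham minus Mock without passing the test. The lists differ in size and in how bright their probes are, and the difference between them was not tested.

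Of 11 other genes expressed in fat cells, 11 fell in Sham minus Mock (median -1.69), and 10 rose in Vanillin minus Sham (median 1.17). Car3, a carbonic anhydrase abundant in white fat and in muscle, had a mean of 814 in Sham and arrays at the top of the intensity range in both Mock and Vanillin, so that no exact difference is given. Orm1, an acute phase glycoprotein, fell by 5.22 and rose by 5.44. Npr3, the clearance receptor for natriuretic peptides, fell by 4.11 and rose by 3.29, and Adig, or adipogenin, fell by 3.69 and rose by 3.25.

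Counts of lipid uptake and lipolysis genes depended on the probe. Of the 6 measured, 3 rose and 3 fell in Sham minus Mock (median -0.00), and 1 rose and 3 fell in Vanillin minus Sham (median -0.04). With the next brightest probe of Cd36 and Aqp7, 1 rose and 5 fell in Sham minus Mock (median -1.11), and 3 rose and 2 fell in Vanillin minus Sham (median 0.13). Lpl, lipoprotein lipase, which frees fatty acids from circulating lipoproteins, gave 16907, 17227 and 16564 in Mock, 19539, 18600 and 19123 in Sham, and 13673, 13703 and 13273 in Vanillin. The groups did not overlap, with Sham highest and Vanillin lowest. The differences were 0.18 (SE 0.044, adjusted p = 0.0072) in Sham minus Mock, -0.49 (adjusted p = 2.6e-05) in Vanillin minus Sham and -0.32 (adjusted p = 0.00028) in Vanillin minus Mock. Its Sham mean was 113% of Mock, where the medians of the secreted and droplet genes were 2.5% and 6.6%.

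Lipe, the hormone-sensitive lipase, was low in both treated groups. It gave 1406, 1288 and 1439 in Mock, 722, 663 and 722 in Sham, and 594, 588 and 654 in Vanillin. Its Vanillin mean was 44.4% of Mock (difference -1.15, SE 0.066, adjusted p = 9e-07), and its Sham mean 51.0% (-0.96, adjusted p = 1.7e-06). The small drop of -0.19 from Sham to Vanillin (adjusted p = 0.038) was lost without Sham replicate 1 (adjusted p = 0.105) or 3 (0.101) and without Vanillin replicate 1 (0.0925) or 2 (0.118), and adjusted p ranged from 0.0183 to 0.118 over the settings tried. Pnpla2, the lipase that takes the first fatty acid off triglyceride, gave 10108, 10190 and 10317 in Mock, 9440, 9155 and 8496 in Sham, and 9971, 10170 and 9360 in Vanillin. Its drop of -0.18 in Sham minus Mock (adjusted p = 0.021) was lost without Mock replicate 2 (0.0512) or 3 (0.0667) or Sham replicate 3 (0.0695), and its other probe, at means of 144 and 146, differed by 0.02 (adjusted p = 0.85). Over the settings tried, adjusted p of Pnpla2 ranged from 0.00765 to 0.32.

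Slc2a4, the insulin-responsive glucose transporter of fat and muscle, gave 1572, 1508 and 1505 in Mock, 627, 594 and 625 in Sham, and 701, 658 and 679 in Vanillin. It fell by 1.29 in Sham minus Mock (SE 0.048, adjusted p = 2.1e-08) and by 1.15 in Vanillin minus Mock (adjusted p = 1.1e-07), remaining at 40.3% and 44.5% of Mock. Its rise of 0.14 in Vanillin minus Sham (adjusted p = 0.04) was lost when any 1 array other than Mock replicate 1 was left out. Without Mock replicates 2 and 3 the adjusted p was 0.0574 and 0.0643, without Sham replicates 1, 2 and 3 it was 0.0558, 0.113 and 0.058, and without Vanillin replicates 1, 2 and 3 it was 0.0986, 0.0501 and 0.079. With the replicate number as a block in a fit to the Sham and Vanillin arrays it was 0.0889, and over the settings tried it ranged from 0.0229 to 0.113.

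Cd36 and Aqp7 gave different answers by probe. Cd36, the fatty acid translocase of fat cells, capillaries and macrophages, gave 398, 344 and 363 in Mock, 814, 868 and 909 in Sham, and 758, 429 and 572 in Vanillin at its brightest probe. Its other probe gave 264, 273 and 271 in Mock, 21.8, 23.2 and 23.3 in Sham, and 181, 179 and 200 in Vanillin. The brightest probe rose by 1.19 in Sham minus Mock (SE 0.17, adjusted p = 0.00023), whereas the other fell by 2.88 (SE 0.053, adjusted p = 1.6e-10). In Vanillin minus Mock they differed by 0.61 (adjusted p = 0.014) and -0.50 (adjusted p = 5.4e-05). In Vanillin minus Sham they differed by -0.58 (adjusted p = 0.019) and 2.39 (adjusted p = 1.3e-09). The call at -0.58 was lost without Sham replicate 2 (0.0514), Sham replicate 3 (0.0584) or Vanillin replicate 3 (0.052). Over the settings tried adjusted p ranged from 1.32e-09 to 0.0584. The lowest is that of the other probe, which rose by 2.39, and not of a drop.

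Aqp7, the channel by which fat cells release glycerol, gave 305, 246 and 293 in Mock, 469, 543 and 524 in Sham, and 380, 688 and 653 in Vanillin at its brightest probe, a rise of 0.83 in Sham minus Mock (SE 0.2, adjusted p = 0.0055). Its other 2 probes fell, from 317, 329 and 336 to 125, 132 and 126, and from 248, 272 and 264 to 96.4, 96.6 and 94.2, with differences of -1.26 (adjusted p = 7.9e-08) and -1.31 (adjusted p = 1.7e-07). In Vanillin minus Mock the brightest probe was at 0.95 (adjusted p = 0.0034) and the others at -0.31 and -0.28. In Vanillin minus Sham these 2 rose by 0.95 and 1.03. The brightest probe differed by 0.12 (adjusted p = 0.67), or by 0.38 without Vanillin replicate 1 (adjusted p = 0.0146). Over the settings tried adjusted p ranged from 1.7e-06 to 0.995. The lowest is that of the next brightest probe, at 0.95, and not of the brightest. Which transcripts each probe reads is not given in the sources used here, so no direction is assigned to either gene, although both count among those called higher in Sham minus Mock.

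**Figure D3:**
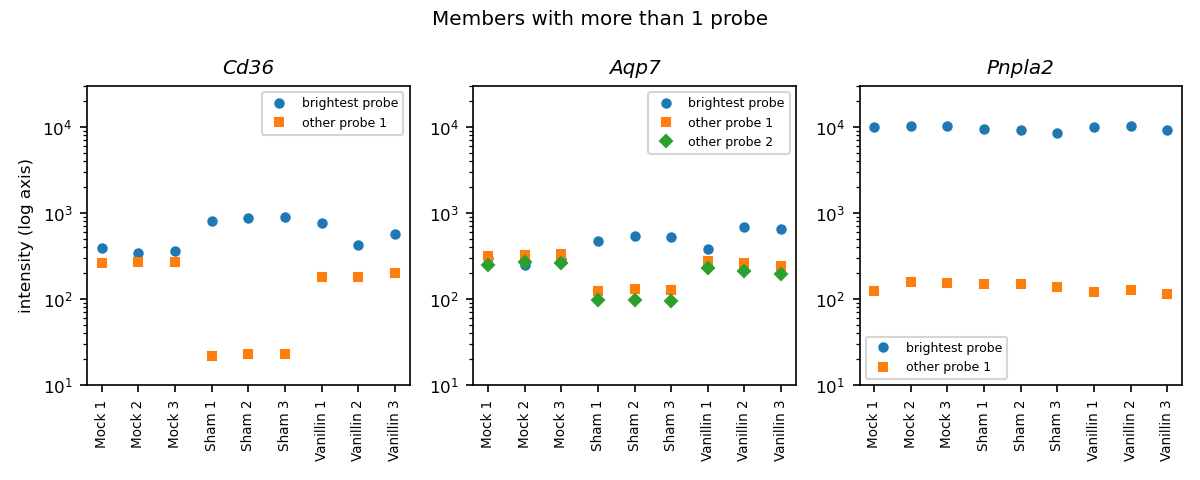
Intensity on a log axis in each array for every probe of the 3 genes with more than 1 probe, the brightest on average shown as circles. For Cd36 and Aqp7 the circles are higher in Sham than in Mock while the other probes are lower, and the Pnpla2 probes are nearly level.

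Of the 6 regulators, 4 fell and 1 rose in Sham minus Mock (median -0.88), and 4 rose and 1 fell in Vanillin minus Sham (median 0.80). Cebpa, the factor that keeps fat cells differentiated, gave 8694, 8392 and 8398 in Mock, 1837, 1866 and 1825 in Sham, and 4984, 5312 and 5019 in Vanillin. The groups were far apart, with Vanillin at 60.1% of Mock and Sham at 21.7% (difference Sham minus Mock -2.19, SE 0.046, adjusted p = 3.8e-10). Cebpb, which acts early in fat cell differentiation and in inflammation, gave 6943, 7281 and 7086 in Mock, 4905, 4756 and 4680 in Sham, and 9291, 9132 and 8353 in Vanillin. It differed by -0.57 (SE 0.054, adjusted p = 1.5e-05), 0.90 (adjusted p = 1.9e-06) and 0.33 (adjusted p = 0.00085) in the 3 comparisons, so the Vanillin arrays lay above both others.

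Thrsp, a lipogenic protein switched on by thyroid hormone, gave 814, 865 and 839 in Mock, 63.1, 53 and 62.6 in Sham, and 361, 289 and 266 in Vanillin. It was the member furthest below Mock in Vanillin, at 36.4% (difference -1.42, SE 0.1, adjusted p = 4.4e-06), after a drop of -3.50 in Sham (adjusted p = 4.5e-09). Srebf1, the sterol-regulated activator of lipogenesis, stood at 41.8% of Mock in Sham (-1.20, adjusted p = 3.1e-06) and 69.5% in Vanillin (-0.50, adjusted p = 0.0014). Mlxipl, the carbohydrate-responsive factor, differed by -0.10 in Sham minus Mock (adjusted p = 0.35) and by -0.27 in Vanillin minus Mock (adjusted p = 0.025). The latter call was lost without Mock replicate 2 (0.0783) or 3 (0.0534) or Vanillin replicate 2 (0.0717) or 3 (0.0833), over a range of 0.00115 to 0.0833. In Vanillin minus Sham Mlxipl differed by -0.17 (adjusted p = 0.12), and by -0.26 without Vanillin replicate 1 (adjusted p = 0.0192; range 0.0192 to 0.351). The Pparg probe was dim in all arrays, at 4.56, 3.56 and 4.56 in Mock, 7.89, 5.67 and 7.89 in Sham, and 3.89, 4.44 and 3.67 in Vanillin. It counts as 1 of the members called higher in Sham and lower in Vanillin minus Sham (0.19, adjusted p = 0.012, and -0.21, adjusted p = 0.011), but with 64 added before the log neither passed (0.127 and 0.119), nor did the latter with the replicate block on the Sham and Vanillin arrays (0.055). The latter ranged from 0.0033 to 0.119 over the settings tried, and these values give no level of the receptor.

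Among 12 other regulators of fat cell formation, 7 fell (58.3%) and 2 rose (16.7%) in Sham minus Mock (median -0.55), against 23.2% and 36.5% of all probes. Gata3 fell by 3.37 and rose by 3.05 in Vanillin minus Sham, and Klf15 fell by 1.92. Dlk1, a preadipocyte factor, was 1 of the 2 that rose, with a rise of 1.75 in Sham minus Mock and a drop of -1.13 in Vanillin minus Sham. Rxra, the partner of Pparg, fell by 1.57 and rose by 0.80.

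The fatty acid synthesis genes were divided. Of 5 measured, 2 fell in Sham minus Mock (median -0.16) and rose in Vanillin minus Sham (median -0.02), Scd1 and Elovl6, and 3 did not pass the test in either. Scd1, the desaturase that makes oleate, gave 63146, 65507 and 61257 in Mock, 13998, 13202 and 12817 in Sham, and 65509, 65507 and 64390 in Vanillin. The Mock and Vanillin arrays lie at or near the top of the scanner's range, which limits the drop of -2.25 in Sham (SE 0.05, adjusted p = 6.5e-10) and the difference of 0.04 between Vanillin and Mock (adjusted p = 0.53). Elovl6, which extends palmitate to stearate, gave 9854, 10604 and 10044 in Mock, 5254, 5076 and 5099 in Sham, and 12660, 13146 and 12372 in Vanillin. It fell by 0.98 in Sham minus Mock (SE 0.049, adjusted p = 1.7e-07) and stood above Mock in Vanillin by 0.32 (adjusted p = 0.00049), the Vanillin arrays being the highest of the 9.

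Fasn and Acaca, enzymes that build the fatty acid chain, moved little. Acacb and Acly were not matched to a probe, and the Fasn probe is weak, below the array medians of 319.6 to 320.1. Fasn, fatty acid synthase, gave 134, 129 and 127 in Mock, 116, 119 and 111 in Sham, and 105, 101 and 132 in Vanillin, and no difference passed the test (-0.16, -0.04 and -0.19, adjusted p = 0.14, 0.74 and 0.087). Without Vanillin replicate 3, whose value was the highest of its group, Sham minus Mock passed at -0.16 (adjusted p = 0.0217) and Vanillin minus Mock at -0.30 (adjusted p = 0.00231). With only the 6 Mock and Sham arrays the former also passed (0.0279), and over the settings tried the 2 ranged from 0.0217 to 0.293 and from 0.00231 to 0.27. Acaca, acetyl-CoA carboxylase, gave 962, 993 and 944 in Mock, 925, 828 and 881 in Sham, and 886, 783 and 732 in Vanillin, and was lower in Vanillin than in Mock (-0.27, SE 0.074, adjusted p = 0.014) without a called change between the other pairs. Its difference of -0.13 in Vanillin minus Sham (adjusted p = 0.17) was -0.21 without Vanillin replicate 1 (adjusted p = 0.0275; range 0.0275 to 0.461). Scd2, a desaturase of many tissues, gave group means of 58861, 58510 and 57513, close to the top of the range, with differences of -0.01, -0.02 and -0.03.

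Of 11 other lipogenic genes, 6 fell (54.5%) and 2 rose (18.2%) in Sham minus Mock (median -0.18), against 23.2% and 36.5% of all probes. Me1, malic enzyme, which supplies reducing power for lipogenesis, fell by 2.44 and rose by 1.62 in Vanillin minus Sham, and Acsl1, which activates fatty acids, fell by 2.40 and rose by 1.90. Pcx, pyruvate carboxylase, fell by 1.47, while Fads2, a desaturase of polyunsaturated fatty acids, rose by 1.38 in Sham minus Mock and differed by -0.69 in Vanillin minus Sham. Of 7 sterol synthesis genes, 3 fell (42.9%) and 1 rose (14.3%) in Sham minus Mock (median -0.11). In Vanillin minus Sham 6 rose (median 0.34). That is 85.7% called higher, against 15.7% of all probes.

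Of the 7 glycerolipid synthesis genes, 3 fell and 2 rose in Sham minus Mock (median -0.53), and 5 rose and 2 fell in Vanillin minus Sham (median 0.64). Dgat2, which makes triglyceride for droplets, gave 8675, 7925 and 8493 in Mock, 2594, 2712 and 2621 in Sham, and 5663, 5557 and 5905 in Vanillin. The groups did not overlap, and the differences were -1.66 (SE 0.052, adjusted p = 6.5e-09), 1.11 (adjusted p = 3.3e-07) and -0.55 (adjusted p = 2.4e-05). Pck1, which makes glycerol phosphate for storage in fat cells and glucose elsewhere, stood at 32.6% of Mock in Sham (difference -1.61, adjusted p = 4.1e-09) and 50.8% in Vanillin (-0.98, adjusted p = 3e-07). Gpam, the acyltransferase of the first step, stood at 39.0% and 76.1% (differences -1.30 and -0.38, adjusted p = 2.1e-07 and 0.0012).

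Dgat1, the triglyceride enzyme also used by the absorptive gut, gave 1588, 2856 and 2930 in Mock, 1673, 1504 and 1748 in Sham, and 3041, 2710 and 2473 in Vanillin. Mock replicate 1 lay with the Sham arrays. Sham minus Mock was -0.53 (SE 0.21, adjusted p = 0.057) with it and -0.81 without it (adjusted p = 0.000147), over a range of 0.000147 to 0.184. The rise of 0.73 in Vanillin minus Sham (adjusted p = 0.019) did not pass without Sham replicate 2 (0.0622) or Vanillin replicate 1 (0.0574), over a range of 0.00028 to 0.0622. Gpd1, which supplies glycerol phosphate, differed by -0.12 in Sham minus Mock (adjusted p = 0.084) and fell by 0.31 in Vanillin minus Sham (adjusted p = 0.00115) and by 0.43 in Vanillin minus Mock (adjusted p = 0.00013).

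Agpat2 and Mogat2 were high in Sham. Agpat2, the second acyltransferase of the pathway and a gene needed for human fat development, gave 4437, 4203 and 4222 in Mock, 6752, 6803 and 6346 in Sham, and 8741, 9258 and 9004 in Vanillin. It was the only member called higher in all 3 comparisons, by 0.63, 0.44 and 1.07 (SE 0.05, adjusted p = 4.8e-06, 0.00012 and 2.5e-07). Mogat2, the monoacylglycerol enzyme of intestinal fat absorption, gave 180, 185 and 174 in Mock, 419, 422 and 426 in Sham, and 262, 207 and 236 in Vanillin. It rose by 1.16 in Sham minus Mock (SE 0.075, adjusted p = 1.1e-06) and fell by 0.81 in Vanillin minus Sham (adjusted p = 3.4e-05).

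Other genes of gut lipid handling were set beside Mogat2. Of 10 enterocyte fat absorption genes, 6 rose and 3 fell in Sham minus Mock (median 0.44). That is 60% called higher and 30% lower, against 36.5% and 23.2% of all probes. In Vanillin minus Sham 2 rose and 5 fell (median -0.25). That is 20% called higher and 50% lower, against 15.7% and 32.2% of all probes. Apob, the protein of chylomicrons, rose by 1.47 and fell by 1.83, and Fabp1, the enterocyte and liver fatty acid carrier, rose by 1.25 and fell by 1.06. Of 9 genes of fatty acid oxidation, 5 fell (55.6%) and 1 rose (11.1%) in Sham minus Mock (median -0.38). In Vanillin minus Mock 7 fell (77.8%) and 1 rose (11.1%), with a median of -0.42. Of all probes, 26.2% were called lower and 24.5% higher in that comparison. Of 11 other droplet and lipolysis genes, 5 fell (45.5%) and 2 rose (18.2%) in Sham minus Mock (median -0.14). They were led by Mgll, the monoglyceride lipase, which fell by 4.36 and rose by 4.12 in Vanillin minus Sham. G0s2, an inhibitor of Pnpla2, was at 3185 in Mock, 3155 in Sham and 19464 in Vanillin, a difference of 2.61 in Vanillin minus Mock.

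**Figure D4:**
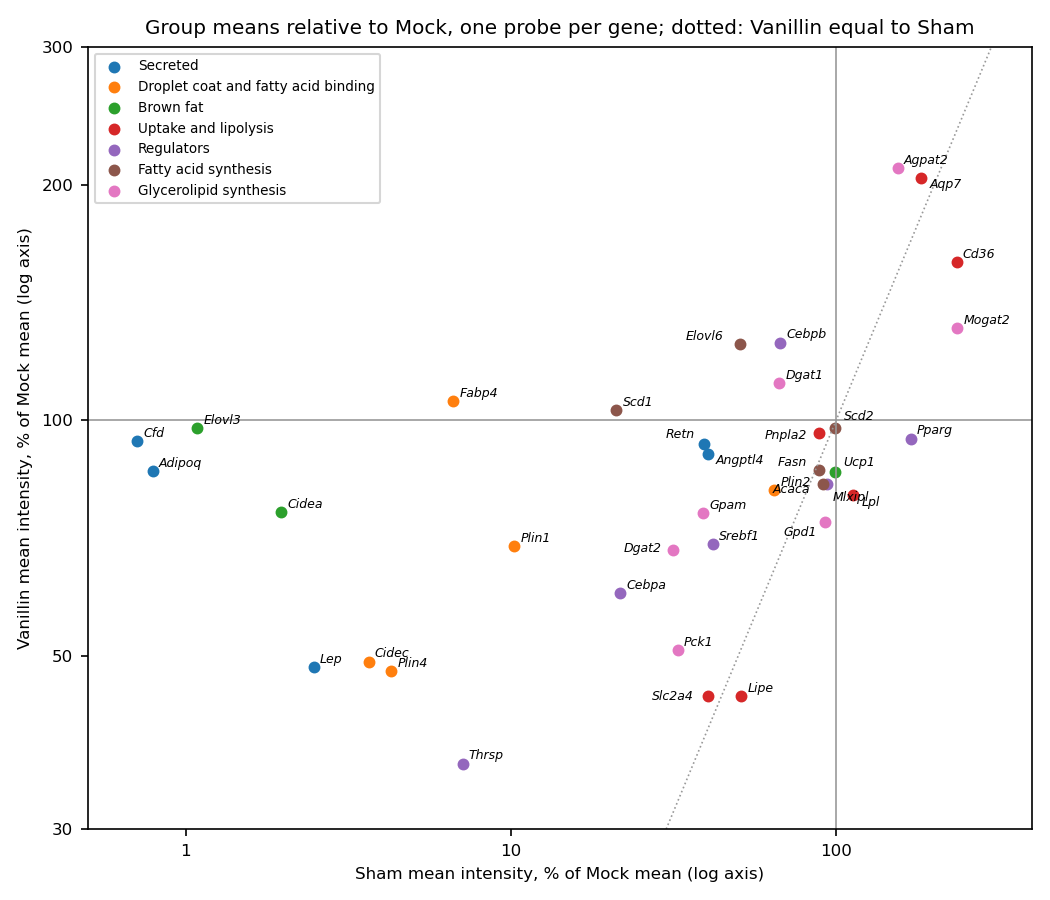
Each point is 1 of the 37 genes, with its Sham mean (horizontal) and Vanillin mean (vertical) as percent of its Mock mean on log axes, coloured by role; the dotted line marks equal Sham and Vanillin levels. Cfd, Adipoq, Elovl3 and Cidea lie at 0.707% to 1.96% of Mock in Sham and 76.2% to 97.8% in Vanillin, while Lipe and Slc2a4 lie near the dotted line, at 51.0% and 40.3% in Sham and 44.4% and 44.5% in Vanillin.

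Members that had all been low in Sham differed in how far below Mock they stood in Vanillin. Fabp4, Elovl3, Cfd, Retn and Angptl4 were at 90.6% to 106% of Mock in Vanillin and did not pass the test, and neither did Scd1, whose levels in both groups are at the top of the range. Lep, Plin4, Cidec, Pck1, Slc2a4, Lipe and Thrsp were at 36.4% to 50.8%. No test of the difference between these genes was made, and they were grouped here by their values.

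Markers of other tissues were followed in the same arrays because several members are expressed outside fat. These lists, too, were chosen with earlier results of these data known. Of 12 sebaceous gland markers, 10 fell and 1 rose in Sham minus Mock (median -2.64), and 11 rose in Vanillin minus Sham (median 2.27). Their summed intensity was 121258 to 125843 in Mock, 7571 to 8037 in Sham and 112792 to 115840 in Vanillin, which is 6.15% to 6.53% of the Mock mean in Sham and 91.6% to 94.1% in Vanillin. Awat1, a wax enzyme of the sebaceous gland, had means of 15462, 66.1 and 16743, and Elovl4, an elongase of skin, means of 47508, 251 and 50168. For comparison, the secreted fat cell genes summed to 2.86% to 3.31% of Mock in Sham and 88.9% to 92.0% in Vanillin, the droplet genes to 14.2% to 14.7% and 81.9% to 84.4%. Of the sebaceous markers, 3 had a Sham mean under 50 and 0 had one in Mock or Vanillin.

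Of the squamous keratinocyte markers, Krt10, Krt13 and Lor reached the top of the range in Mock. The markers fell in 12 of 12 cases in Sham minus Mock (median -6.34) and rose in 11 of 12 in Vanillin minus Sham (median 5.31), with 4 under 50 in Sham. Hair follicle markers fell in 9 of 9 (median -4.84) and rose in 9 of 9 (median 4.22). Their sum was 94306 to 100443 in Mock, 2323 to 2507 in Sham and 48667 to 51424 in Vanillin, with 3 under 50 in Sham. Skeletal muscle markers fell in 9 of 9 (median -5.77) and rose in 9 of 9 (median 3.86), and in Vanillin were at 36.2% to 38.8% of Mock. No marker of these 4 lists had a mean of 0 in any group.

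Mammary and smooth muscle markers ran differently. Of 7 mammary epithelium markers, 5 fell in Sham minus Mock (median -0.69) and 2 rose in Vanillin minus Sham (median 0.02). Their sum was 54580 to 56943 in Mock, 7479 to 7903 in Sham and 9148 to 12613 in Vanillin, with 1, 3 and 2 under 50. The median marker stood at 51.9% of Mock in Sham, well above the level of the sum. Of 5 smooth muscle markers, 5 fell in Sham minus Mock, and the sum was 93183 to 94576, 40278 to 43016 and 46439 to 49726. Of 6 endothelial markers, 4 fell and 1 rose, with sums of 11464 to 11819, 8540 to 9096 and 10868 to 11865. Of 5 macrophage markers, 1 fell and 1 rose in Sham minus Mock and 4 rose in Vanillin minus Sham, with sums of 9656 to 9817, 10098 to 10624 and 15211 to 15688. Of 6 mesothelial markers, 5 rose and 1 fell in Sham minus Mock, with sums of 529 to 543, 3293 to 3625 and 1789 to 1872. The 10 colonocyte markers were not level either. In Sham minus Mock 4 rose and 3 fell (median 0.13). That is 40% called higher and 30% lower, near the 36.5% and 23.2% of all probes, whose median was 0.10. In Vanillin minus Sham 0 rose and 7 fell (median -0.33). That is 70% called lower, against 32.2% of all probes. The part of any of these tissues in the levels of the members was not tested.

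**Figure D5:**
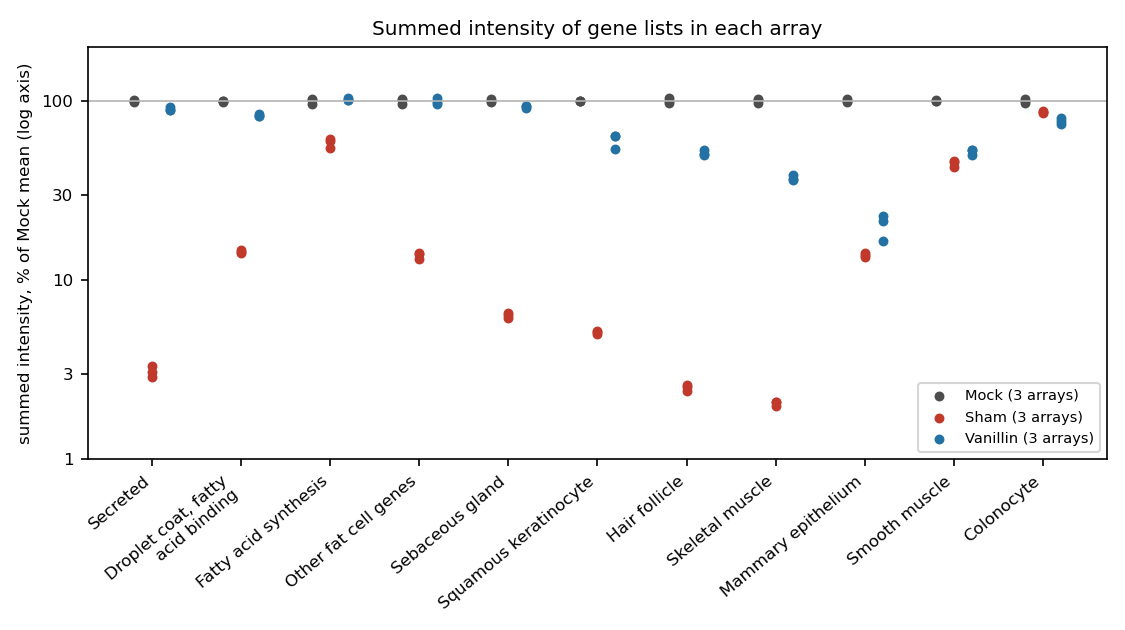
Summed intensity of gene lists in each array as percent of the Mock mean, on a log axis, with 3 points for each group. Secreted, droplet, other fat cell, sebaceous, squamous, hair follicle, skeletal muscle and mammary lists are under 15% in Sham. The sum of colonocyte markers is at 85.9% to 88.2% in Sham, although the means of single markers ranged from 12.6% to 225% of Mock. Vanillin points lie between 81.9% and 104% for the fat cell and sebaceous lists and at 36.2% to 38.8% for skeletal muscle.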

How the data were processed

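Colon RNA was amplified and labelled with Cy5, per the labels' protocols. What the authors deposited is a linear intensity per probe, which shows their normalization between arrays: sorted log2 values of the 9 arrays differed by at most 0.109 and their quartiles by at most 0.0128. Limma is named in the submitters' processing notes, without a version or role. Scanner, background method and genome build: not given in the sources used here. Of the deposited columns, 0 were without a sample.

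Negative values were set to 0 and log2(value + 16) was taken. Limma 3.58.1 (R 4.3.3) fitted the 3 group means over the 9 arrays, using lmFit and eBayes without a trend and two-sided tests, with 6 residual and 2.69 prior degrees of freedom and a median residual SD of 0.0895, and p-values were adjusted by Benjamini-Hochberg over 26423 probes in each comparison. The number of arrays limits the precision. Of the probes, 20377 had 1 gene symbol, 0 several and 6046 none, and 2126 were renamed through a synonym table. Each gene is given by the probe brightest on average over all arrays. About 20% of probes per array were under an intensity of 50.

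All members were named whatever their values, and of each list of other genes up to 4 with the largest called changes in a comparison. Prdm16, which was not called in Sham minus Mock, was named outside this rule. The members and lists were chosen with earlier results of these data known. In simulated Vanillin minus Sham data of 26423 probes, the fit recovered 3, 37, 46 and 50 of 50 probes shifted by 0.25, 0.5, 1 and 2, with 5 false calls. All other simulated probes held no difference, whereas 4141 probes were called higher and 8518 lower in the real comparison. The recovery and the false calls therefore do not carry over to these data.

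Replicate numbers come from the sample titles. Deviations of arrays with the same number correlated at 0.169, 0.126 and 0.201 between Sham and Vanillin, all over 0.1. Between Mock and the others they correlated at -0.288 to -0.016. Of all arrays, only 3 correlated best with an array of their own number. The labels state no pairing, and correlations this low do not establish one. A block on the Sham and Vanillin arrays was therefore tried only as an alternative. The values given come from the fit without a block, and the block on the Sham and Vanillin arrays is given where it changed a call. The alternatives were the number added before the log, quantile normalization again, scaling to the 75th percentile, a filter on dim probes, only the arrays compared, array weights, an intensity trend, the replicate block, the mean of a gene's probes, a minimum change and leaving out each array. Plots come from matplotlib 3.10.9 under Python 3.11.15.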

Additional observations from a re-analysis of the deposited data

Results flagged for a closer look

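Of the members called in all 3 comparisons, 3 lay on opposite sides of Mock in Sham and in Vanillin, and Vanillin and Sham differed by the test of that difference itself. Lpl was above Mock in Sham and below it in Vanillin (Vanillin minus Sham -0.49). Cebpb was below Mock in Sham and above it in Vanillin (0.90), as was Elovl6 (1.30).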

How the results depend on the processing

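With a minimum change of 1 beside the adjusted p (limma), the members called higher in Sham minus Mock went from 6 to 2, those lower in Vanillin minus Sham from 6 to 0 (the lowest of the 6 was at -0.81), those higher in Vanillin minus Mock from 6 to 1 and those lower from 19 to 6, while 19 lower in Sham minus Mock and 16 higher in Vanillin minus Sham passed. With the mean of a gene's probes, directions turned for Aqp7 (-0.58) and Cd36 (-0.84) in Sham minus Mock and for Cd36 in Vanillin minus Sham (0.90), by construction from the probes that disagree. Further choices made after seeing the data were the next brightest probe of these genes, which gave Aqp7 -1.26 and Cd36 -2.88 in Sham minus Mock, Cd36 2.39 in Vanillin minus Sham and Aqp7 -0.31 and Cd36 -0.50 in Vanillin minus Mock, and leaving out Cd36, Aqp7 and Pparg, which left 3 called higher in Sham minus Mock. With any 1 array left out, Sham minus Mock had 6 to 6 higher and 23 to 25 lower, Vanillin minus Sham 22 to 24 higher and 4 to 8 lower, and Vanillin minus Mock 6 to 6 higher and 18 to 20 lower. The replicate block in a fit to all arrays left the counts at 6 and 24, 24 and 6, and 6 and 19. A replicate block on the Sham and Vanillin arrays alone, chosen after seeing the data, gave 23 higher and 5 lower in Vanillin minus Sham, with Slc2a4 and Pparg no longer called. Of 2257 values of single genes over all alternatives, 2155 kept their side of the threshold, 75 lost the call, 19 gained it and 8 turned. Among the 2155, 16 uncalled values changed sign and the others kept direction. Dim probes (Pparg, Ucp1 and, in Sham, Lep and Elovl3) and probes near the top of the range (Scd1, Scd2) limit what can be read from their differences.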
